A study of Mus musculus with 2 samples.

Results

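The 78 genes of this account encode mitochondrial ribosomal proteins, 49 named for the large subunit (Mrpl genes) and 29 for the small subunit (Mrps genes). They are the gene columns of the deposited matrix whose name starts with MRPL or MRPS and a digit, 78 of 16800 columns, and they were followed in natural killer (NK) cells of fed, fasted and refed mice. By the known make-up of the ribosome, 48 are relatives of bacterial ribosomal proteins, 29 belong to the ribosome of mitochondria alone, and 1, Mrps36, works outside the ribosome.

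The mitochondrial ribosome translates the few messenger RNAs that mitochondrial DNA encodes, all of them for membrane subunits of the respiratory chain and the ATP synthase. Its proteins are encoded in the nucleus, made in the cytosol and imported, so the amount of this ribosome depends on nuclear genes while its RNAs come from mitochondrial DNA. In NK cells, innate lymphocytes that kill transformed cells, growth and activation are known to raise the demand for mitochondrial protein.

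All cells came from C57BL/6 mice of 12 weeks of age, and per the labels mice received MC38 cells, a mouse colon carcinoma line, under the skin and were fed ad libitum or on cycles of fasting. NK cells, sorted as lineage-negative cells with NK1.1 and CD49b, came from spleen, bone marrow and tumour, and the tag list names an ad libitum (AL), a fasted (Fast) and a refed (ReFed) population of each tissue and a naive spleen population. The sources used here do not say what naive stands for, whether those mice carried a tumour, how long fasting lasted or how many mice gave each population. Each population carried 1 hashtag in 1 lane and is therefore 1 sample without replicates, and the differences below come with counting intervals but without p-values.

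Of 13118 cells, 7479 carried the tag of 1 population by the authors' classification, and 5606 (42.8% of the classified cells) were marked there as doublets and not used. Populations held 46 to 1804 cells, and their summed unique molecular identifiers (UMIs) ran from 571789 to 8855566. The tumour AL population had the fewest cells, and 1 cell gave 13.1% of its UMIs. All 10 NK markers were found in each population, but not in like parts of its cells. Nkg7, a granule protein gene, had a UMI in 95.7% to 99.6% of the cells of every population. Ncr1 had one in 92.8% to 96.6% of spleen cells, 92.0%, 75.7% and 92.3% of AL, fasted and refed marrow cells, and 58.7%, 67.0% and 78.9% in tumour. Klrb1c ranged from 60.9% in AL tumour to 92.5% in naive spleen, Eomes from 47.4% to 68.4%, and Itga2 from 8.74% to 28.7%. Markers of other cells were also there. Cd3e, a T cell marker, had a UMI in 9.56% to 13.9% of marrow cells and in at most 2.11% of cells elsewhere. The 9 neutrophil markers summed to 10540 UMIs per 1000000 UMIs (CPM) in fasted marrow, 2558 in AL marrow and 46.7 in refed marrow, against 35.1 to 45.6 in spleen. In tumour they summed to 12.2 CPM in AL, 145 in fasted and 9.45 in refed cells. The 8 dendritic cell markers summed to 736 to 1593 CPM in tumour and 23.6 to 128 elsewhere. Red cell, basophil or mast cell, fibroblast and tumour epithelium lists summed to at most 51.2 CPM in any population, B cell lists to 90.0 to 159, T cell lists to 586 to 1194, lists of other innate lymphoid cells to 37.8 to 217 and monocyte or macrophage lists to 29.8 to 1246 CPM.

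The genes lie on 17 chromosomes, and 42 of them overlap another annotated gene, 13 on the same strand. Positions are those of GENCODE M21 (GRCm38, the mm10 build named in the submitters' processing notes). Of the 78, 18 (23.1%) had, within 1000 bases upstream of their start, the start of a protein-coding gene read away from them. This held for 6.78% of all protein-coding genes and 11.4% of the protein-coding genes at a measurable level here. Genes that overlap at their starts, such as Mrps11 and Mrpl46, were not counted as such a pair. The counted pairs include Mrpl10 with Lrrc46, Mrps12 with the mitochondrial seryl-tRNA synthetase gene Sars2, and Mrpl32 with the proteasome gene Psma2. RefSeq promoters (GRCm38.p6, 250 bases before to 50 after the start) were at hand for 69 members; Mrpl13, Mrpl15, Mrpl19, Mrpl38, Mrpl4, Mrpl54, Mrps28, Mrps34 and Mrps35 had none in that table. Letters of the NRF1 motif (GCGCANGCG) stood on either strand in 23.2% of these members, against 7.03% of all genes with a promoter and 18.1% of the measurable ones. The ETS motif bound by GABP (CCGGAAG) stood in 37.7% against 9.93% and 25.2%. The YY1 motif (AAGATGGCG) stood in 11.6% against 1.64% and 4.82%, and the TATA box (TATAAA) in 7.25% against 15.7% and 8.12%. NRF1, GABP and YY1 are known regulators of nuclear genes for mitochondria. The ETS and YY1 motifs can share the letters AAG. A match is a run of letters and not a shown binding site.

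The stretches below are the 150 bases before the start of 5 members on which the results turn, read 5′ to 3′ on the strand of the gene, with motif letters in capitals. The start is that of RefSeq, except for Mrpl12 and Mrpl24. Their stretches end at the GENCODE start, 24 and 38 bases before the RefSeq one. Mrpl12 and Mrpl45 show the NRF1 letters, Mrps22 and Mrpl58 the ETS letters, and Mrpl24 none of the motifs searched. Mrpl24 went against most members in fasted cells, but so did Mrpl9 and Mrpl45 in spleen, whose promoters hold NRF1 letters.
Mrpl12, chr11:120484463-120484612, plus strand: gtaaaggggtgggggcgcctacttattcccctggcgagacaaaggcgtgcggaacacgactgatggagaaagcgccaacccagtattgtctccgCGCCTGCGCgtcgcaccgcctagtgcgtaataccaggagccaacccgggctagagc
Mrpl45, chr11:97315566-97315715, plus strand: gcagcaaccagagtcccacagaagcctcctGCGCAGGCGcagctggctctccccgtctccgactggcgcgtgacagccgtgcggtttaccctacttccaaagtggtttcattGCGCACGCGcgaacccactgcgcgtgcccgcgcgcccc
Mrps22, chr9:98601680-98601829, minus strand: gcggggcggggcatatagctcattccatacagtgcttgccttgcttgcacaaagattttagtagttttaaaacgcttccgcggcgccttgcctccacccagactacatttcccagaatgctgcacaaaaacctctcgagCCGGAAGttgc
Mrpl58, chr11:115403602-115403751, plus strand: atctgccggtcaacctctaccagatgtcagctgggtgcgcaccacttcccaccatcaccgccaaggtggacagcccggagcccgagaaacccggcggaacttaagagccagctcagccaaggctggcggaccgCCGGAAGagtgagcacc
Mrpl24, chr3:87919356-87919505, plus strand: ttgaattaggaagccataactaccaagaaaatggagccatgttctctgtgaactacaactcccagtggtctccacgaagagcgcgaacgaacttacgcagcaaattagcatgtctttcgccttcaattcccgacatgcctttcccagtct

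Together the 78 genes gave 234165 UMIs, 0.550% of all UMIs. In spleen they took 0.530% of the UMIs of naive cells, 0.545% of AL cells, 0.490% of fasted cells and 0.537% of refed cells. In bone marrow the shares were 0.646% (AL), 0.484% (fasted) and 0.621% (refed), and in tumour 0.588%, 0.516% and 0.593% in the same order. The fasted population was the lowest of its tissue each time, and the naive, AL and refed spleen populations lay close together. The lowest share of all was in fasted marrow and the highest in AL marrow. A median cell of fasted spleen held 17 UMIs of these genes, and a median cell of AL spleen held 23.

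**Figure D1:**
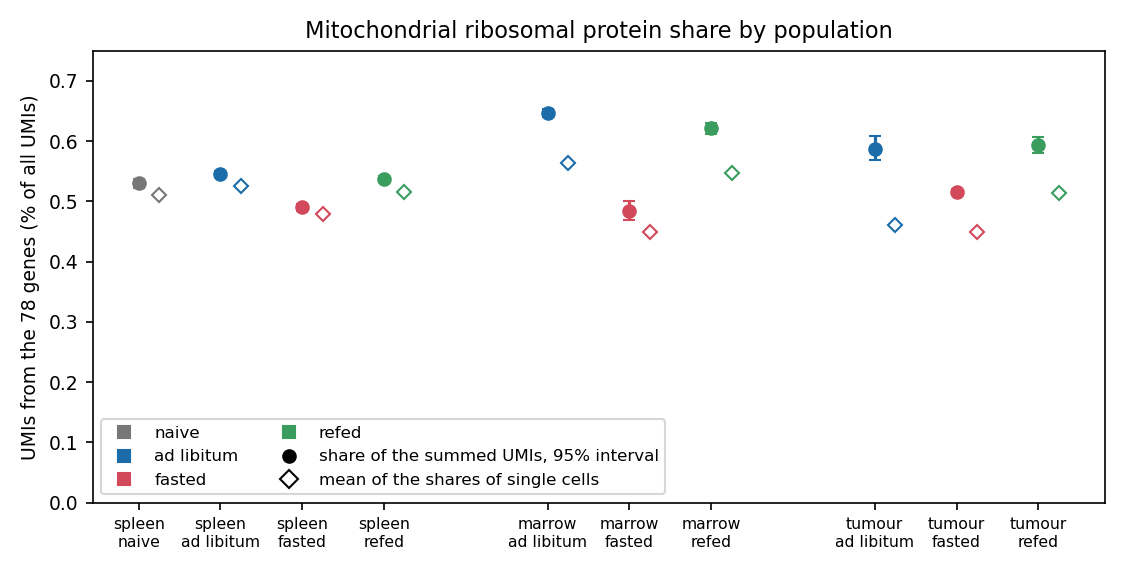
Share of all UMIs that came from the 78 mitochondrial ribosomal protein genes (y axis, %) in each of the 10 populations (x axis); filled points are shares of the summed UMIs with exact 95% binomial intervals, which cover counting error only, and open diamonds are means of the shares of single cells. The fasted population has the lowest filled point in each tissue, 0.490% in spleen, 0.484% in marrow and 0.516% in tumour.

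In spleen, the share of fasted cells was lower than that of AL cells by a log2 ratio of -0.15 (95% counting interval -0.18 to -0.13), a fold of 0.899. Here and below the interval is the exact binomial one and covers counting error only, and a sum over cells cannot tell fewer cells of a kind from less RNA per cell. The difference was alike for the small subunit (-0.17, interval -0.21 to -0.13) and the large subunit (-0.15, -0.17 to -0.12). For single genes, log2 ratios were taken of CPM + 5, the threshold for a count was a ratio of 0.32 in size, and 74 members with a mean of at least 10 CPM were compared; Mrpl53, Mrps2, Mrpl47 and Mrps27 lay below that level. Of the 74, 61 were lower and 13 higher in fasted spleen, with a median of -0.12 beside 0.00 over all 7079 genes at that level. Counts of genes on either side of 0, here and below, stand without the share of all genes, except those lower in several tissues. Past the threshold 8 members were lower, where 6.60% of all genes were, and 2 were higher, where 5.41% of all genes were. With an interval that left out 0, 24 members were lower, where 15.6% of all genes were. The difference was thus small and spread over many members. Without the cells that held at least 3 UMIs of 12 genes of dividing cells, 5 members were lower past the threshold (4.39% of all genes), and in cells of 3000 to 6000 UMIs, a window chosen after the data were seen, 2 were (7.94% of all genes).

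Mrps28, a small-subunit protein, had the lowest ratio in spleen. It stood at 20.04 CPM in naive, 23.0 in AL, 13.8 in fasted and 23.7 in refed cells, and the fasted population was the one apart (log2 ratio to AL -0.57, interval -0.87 to -0.27). The Mrps28 ratio was -0.46 without dividing cells and -0.32 (-0.75 to 0.12) in cells of 3000 to 6000 UMIs. Mrpl33, the most abundant member, stood at 310 CPM in naive, 335 in AL, 257 in fasted and 335 in refed cells, with a log2 ratio of -0.37 (-0.47 to -0.28). It encodes a small bacterial-type protein of the large subunit, and its 13866 UMIs make its value the most precise of the set. Mrps12, the counterpart of the bacterial protein at the decoding centre, stood at 76.0 CPM in naive, 82.4 in AL, 63.0 in fasted and 83.0 in refed spleen (-0.36, -0.54 to -0.19). Mrpl4 (88.2 to 63.8 CPM, -0.44) and Mrpl55 (34.8 to 25.8 CPM, -0.37) were the others among the 5 lowest.

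In bone marrow the difference was larger. Fasted cells had a summed share of 0.484% against 0.646% in AL cells, a log2 ratio of -0.42 (-0.47 to -0.37), again alike for the small (-0.44) and the large subunit (-0.41). Of the 74 members 67 were lower in fasted marrow, with a median of -0.45 beside -0.03 over all genes. Past the threshold 52 were lower, where 26.6% of all genes were, and 1, Mrpl24, was higher, where 20.7% of all genes were. Beside this difference, 33.0% of AL but 11.8% of fasted marrow cells held at least 3 UMIs of the dividing genes, and median depth was 7137 against 4783 UMIs per cell. When cells with those dividing UMIs were left out, 23 members were lower past the threshold (19.3% of all genes) and 3 higher (19.4%), and the summed ratio was -0.17. In cells of 3000 to 6000 UMIs, of which AL marrow had 135 and fasted marrow 43, it was -0.10, and 26 members were lower (35.4% of all genes) and 13 higher (22.0%). The count of lower members was then no longer above the share of all genes. Leaving out the 142 cells, 7 of them from fasted marrow, with over 0.5% of UMIs from markers of other cell types left the marrow ratio at -0.39, whereas leaving out the 4345 cells of all populations with at least 3 UMIs of those markers gave -0.12. The part of neutrophil RNA in single genes was not tested.

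The lowest members in fasted marrow were small-subunit Mrps22 and large-subunit Mrpl37, Mrpl11, Mrpl42 and Mrpl51. Mrps22, which mitochondrial ribosomes have and bacterial ones lack, stood at 25.7 CPM in AL, 6.79 in fasted and 24.5 in refed marrow (fasted against AL -1.38, -2.12 to -0.53). In spleen its levels were 16.1 CPM in AL and 13.8 in fasted cells, and in tumour 20.99 and 17.3, so the low value was that of fasted marrow. Mrpl11, at the factor-binding stalk of the large subunit, stood at 58.0, 25.8 and 56.5 CPM in AL, fasted and refed marrow (-1.03, -1.64 to -0.45). Mrpl37 had few UMIs, with 14.6 CPM in AL and 4.08 in fasted marrow. That lies below the 5.25 CPM that 3 UMIs make in the smallest population, AL tumour, which is not part of this comparison. Fasted marrow held 736125 UMIs in all, so the 6.79 CPM of Mrps22 there also rest on few UMIs. Without dividing cells the ratio of Mrps22 was -1.12 (-1.96 to -0.13) and that of Mrpl11 -0.72 (-1.41 to -0.06), whereas that of Mrpl42 went from -0.90 to -0.19 (-0.66 to 0.26) and that of Mrpl51 from -0.85 to -0.33 (-0.79 to 0.11). Mrps28 went from -0.81 to -0.08 (-0.79 to 0.61) and Mrpl12 from -0.56 to -0.04 (-0.48 to 0.39), with intervals that included 0. These intervals are wide. The dividing cells of AL marrow were also deeper than its other cells, with medians of 14073 and 6156 UMIs. The part of dividing cells in these values was not tested.

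In tumour, the summed share of fasted cells was lower than that of the 46 AL cells by -0.19 (-0.24 to -0.14), with 53 of 74 members lower and a median of -0.15 beside 0.04 over all genes. Past the threshold 18 members were lower (17.6% of all genes) and 5 were higher (26.0% of all genes), so the higher count was below the share of all genes. The mean of the shares of single cells hardly differed, 0.450% in fasted and 0.460% in AL tumour, and in cells of 3000 to 6000 UMIs, of which the AL tumour had 6, the ratio was 0.50. It was 0.18 without cells that held at least 3 UMIs of markers of other cells, and -0.30 without the 5% deepest cells, so neither the direction nor the size in tumour was stable. Mrps18b stood at 57.7 CPM in AL, 31.6 in fasted and 52.8 in refed tumour (fasted against AL -0.78, -1.27 to -0.26). Mrps16, a bacterial-type small-subunit protein, stood at 171 CPM in AL, 111 in fasted and 128 in refed tumour (-0.61, -0.90 to -0.30). Mrpl55 (-0.69), Mrps11 (-0.66) and Mrpl41 (-0.56) were the other members among the 5 lowest. Mrpl4 was higher in fasted tumour, 68.9 against 42.0 CPM (0.65, 0.11 to 1.23), the opposite of its direction in spleen.

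Across tissues, 59 of the 74 members were lower in both fasted spleen and fasted marrow, where 35.3% of all genes were, and 45 in all 3 tissues, where 21.9% of all genes were. The 8 members lower past the threshold in spleen were so in marrow too (4.72% of all genes were in both), and 5 of them also in tumour (2.47% of all genes were in all 3): Mrpl21, Mrpl33, Mrpl54, Mrpl55 and Mrps15. Mrpl24, Mrpl9 and Mrps35 were the 3 members with a higher value in all 3 fasted populations. The share of all genes higher in all 3 was not taken.

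**Figure D2:**
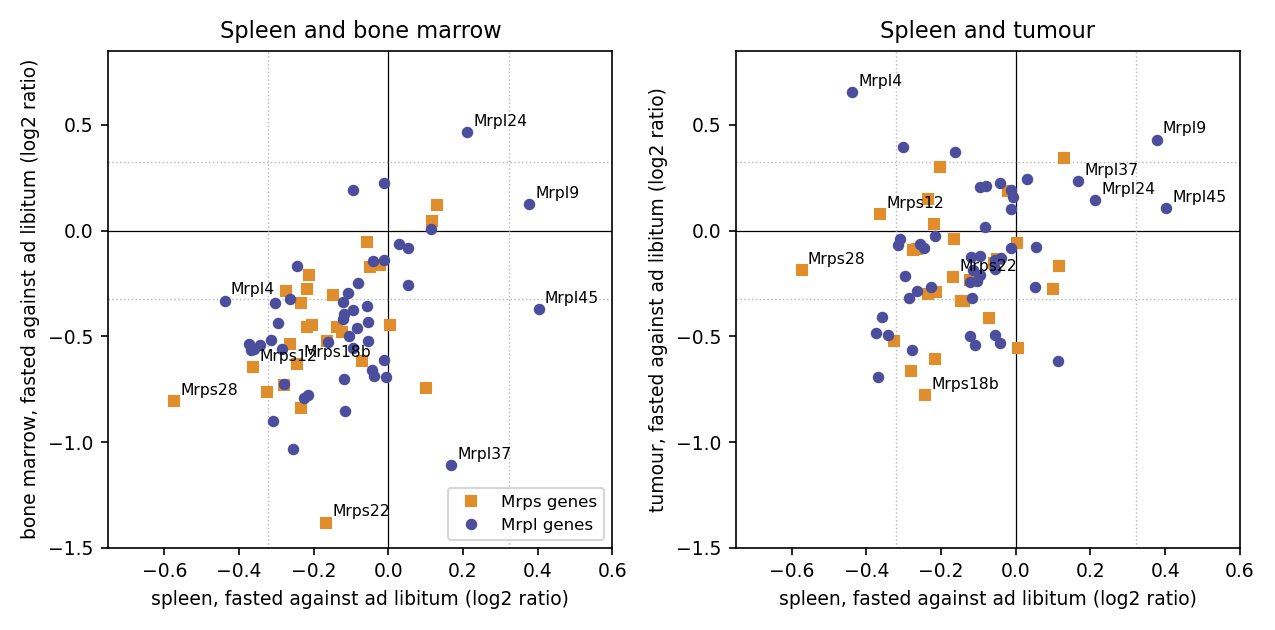
Log2 ratios of CPM + 5 between fasted and AL populations for the 74 members at 10 CPM or more; each point is 1 gene, spleen is on the x axis and marrow (left) or tumour (right) on the y axis, and dotted lines mark the threshold of 0.32. In the left panel 59 points lie below 0 on both axes, with Mrpl24 at 0.21 in spleen and 0.47 in marrow; the points of the right panel are more spread.

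A few members did not follow the rest. Mrpl24, a bacterial-type protein of the large subunit, stood at 111 CPM in naive, 108 in AL, 126 in fasted and 104 in refed spleen. In marrow it stood at 95.1 in AL, 133 in fasted and 99.3 in refed cells, and in tumour at 85.7, 95.2 and 74.8. Its fasted level was the highest of each tissue, with log2 ratios of 0.21 (0.07 to 0.35) in spleen and 0.47 (0.15 to 0.77) in marrow, while in tumour the interval included 0 (0.14, -0.26 to 0.57). Without dividing cells the Mrpl24 ratios were 0.21 and 0.52; in cells of 3000 to 6000 UMIs they were 0.11 (-0.07 to 0.30) and 0.39 (-0.31 to 1.06), so that both intervals then included 0. Mrpl9, a long rod-shaped protein of the large subunit in its bacterial form, stood at 79.6 CPM in naive, 72.4 in AL, 95.5 in fasted and 74.8 in refed spleen. Its ratio of 0.38 (0.22 to 0.54) in spleen was 0.32 (0.10 to 0.54) in cells of 3000 to 6000 UMIs, and in marrow the Mrpl9 ratio was 0.13 (-0.26 to 0.50). Mrpl45, which lies where the nascent chain leaves the ribosome at the inner membrane, had 23.9 CPM in naive, 15.5 in AL, 22.1 in fasted and 18.8 in refed spleen. The AL population was thus the low one for Mrpl45, with log2 ratios of 0.40 (0.11 to 0.69) for fasted against AL and -0.50 (-0.81 to -0.18) for AL against naive. In marrow Mrpl45 stood at 26.1, 19.0 and 25.5 CPM in AL, fasted and refed cells, so its order there was that of most members. Mrpl24 overlaps Rrnad1 and Mrpl9 overlaps Oaz3 on the other strand, and the sources used here do not say whether counting used the strand, so reads of such partners cannot be told apart. The same limit holds for other members that overlap a gene, among them Mrpl33 with Rbks, Mrps28 with Gm15467 and Mrpl58 with Ict1os.

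Refed populations are compared with the same fasted populations as above, so the 2 sets of ratios share samples. The summed share was higher in refed than in fasted cells by 0.13 (0.11 to 0.15) in spleen, 0.36 (0.31 to 0.41) in marrow and 0.20 (0.17 to 0.24) in tumour. The marrow ratio was 0.16 without dividing cells and 0.13 in cells of 3000 to 6000 UMIs. The tumour ratio was -0.028 without cells that held at least 3 UMIs of markers of other cells. It was -0.079 in cells of 6000 to 10000 UMIs (22 refed and 191 fasted cells), with an interval that included 0 (-0.19 to 0.03). In cells of 10000 UMIs or more (41 refed and 140 fasted cells) it was 0.085 (0.04 to 0.13). Within the authors' clusters 0, 7 and 11 it was 0.09, 0.64 and 0.12, with intervals that left out 0. The tumour direction thus depended on the cells that were kept. In refed spleen 10 members were higher past the threshold (6.89% of all genes) and 1, Mrpl9, was lower (7.97%). In refed marrow 45 were higher (22.0% of all genes) and 1, Mrpl24, was lower (23.9%). In refed tumour 19 were higher (14.0%) and 2 were lower (18.5%), Mrpl24 and, named after its value was seen, Mrpl1. Mrps28 led in spleen at 0.61 (0.30 to 0.91), followed by Mrpl54 (0.45) and Mrps17 (0.39). Mrps22 (1.32), Mrpl37 (1.254) and Mrpl11 (1.00) led in marrow, and Mrps18b (0.66), Mrpl35 (0.60) and Mrpl54 (0.50) in tumour. Mrpl24 was lower in all 3 refed populations, at -0.26, -0.41 and -0.33 in spleen, marrow and tumour, and Mrpl9 was lower in refed spleen at -0.33. Without dividing cells 25 members were higher in refed marrow (17.6% of all genes) and 5 lower (24.3%).

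The naive and AL spleen populations were close. The summed ratio of AL against naive was 0.04 (0.02 to 0.06), 1 member, Mrps18b, was higher past the threshold (3.09% of all genes) and 1 member, Mrpl45, was lower (2.44%). Mrps18b stood at 11.8 CPM in naive and 18.4 in AL spleen (0.48, 0.12 to 0.83). Mrps11 (0.31) and the abundant Mrpl52 (209 against 249 CPM, 0.24) were the next highest of the members in AL spleen whose interval left out 0.

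Between tissues of AL mice, marrow had the higher summed share, 0.25 (0.23 to 0.27) above spleen. In marrow 29 members were higher past the threshold (17.0% of all genes) and 0 were lower (22.1% of all genes), although 6 members had a ratio below 0. The median over all genes was -0.06. Mrps28 stood at 46.5 CPM in AL marrow and 23.0 in AL spleen (0.88, 0.64 to 1.11). Mrpl12, the counterpart of the bacterial stalk protein L7/L12, stood at 129 and 79.5 CPM (0.66, 0.52 to 0.81); it is also known to bind the mitochondrial RNA polymerase. Mrpl45 (0.60), Mrpl28 (0.60) and Mrps18b (0.58) followed, and Mrpl24 (-0.17) and Mrpl58 (-0.15) were lower in marrow. Without dividing cells the summed ratio was 0.02, 8 members were higher (7.87% of all genes) and 1 lower (18.5%), and the ratio was 0.21 (-0.01 to 0.42) for Mrpl12 and 0.40 (0.04 to 0.75) for Mrps28. In cells of 3000 to 6000 UMIs the summed ratio turned to -0.11.

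AL tumour against AL spleen gave a summed ratio of 0.11 (0.06 to 0.16), with 26 members higher past the threshold (20.2% of all genes) and 15 lower (42.6% of all genes), beside a median of -0.21 over all genes. The normalisation factors of edgeR's trimmed mean of M-values (TMM) raise every ratio of this pair by 0.16. The summed ratio turned to -0.84 in cells of 3000 to 6000 UMIs and to -0.06 without dividing cells, and with 46 cells the tumour AL values are imprecise. Mrpl58, a peptidyl-tRNA hydrolase that frees stalled chains and is built into the large subunit, was low in every tumour population. It stood at 132 CPM in naive, 134 in AL, 126 in fasted and 123 in refed spleen. It stood at 120, 101 and 129 in AL, fasted and refed marrow, but at 57.7, 67.5 and 61.4 in the tumour populations. All 3 tumour values of Mrpl58 lay below the 7 others, also that of the 801 cells of fasted tumour (AL tumour against AL spleen -1.15, -1.64 to -0.68). Mrps18b had the opposite order, 57.7, 31.6 and 52.8 CPM in tumour, 30.0, 17.7 and 29.4 in marrow and 11.8 to 18.4 in spleen (AL tumour against AL spleen 1.42, 0.90 to 1.91). Mrpl4 (-0.99), Mrpl9 (-0.72), Mrps24 (-0.42) and Mrps14 (-0.34) were lower in AL tumour, and Mrps28 (0.94), Mrpl54 (0.88), Mrpl10 (0.86) and Mrps6 (0.77) were higher.

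Some names do not tell the place of the protein. Mrps18a, Mrps18b and Mrps18c descend from one bacterial protein, but Mrps18a sits in the large subunit. In fasted against AL spleen Mrps18c was at -0.26 (-0.43 to -0.10), Mrps18b at -0.24 (-0.55 to 0.06) and Mrps18a at -0.02 (-0.24 to 0.20), and in marrow they were at -0.54, -0.63 and -0.16. Mrps30, also a large-subunit protein, was at -0.20 (-0.46 to 0.05) in spleen and -0.45 in marrow. Mrps36, a component of the 2-oxoglutarate dehydrogenase complex with named pseudogenes whose reads may be shared, was at -0.17 (-0.33 to 0.00) in spleen and -0.52 (-0.91 to -0.15) in marrow, values like those of the ribosomal members. Among other members with a known role, Mrpl3, close to the peptidyl transferase centre, was at -0.30 (-0.55 to -0.06) in spleen, Mrpl12 at -0.29 (-0.46 to -0.11), Mrpl10, which anchors the stalk, at -0.12 (-0.41 to 0.16), Mrps5 at -0.07 (-0.32 to 0.17), and Mrpl44, related to RNase III, at 0.11 (-0.15 to 0.37). Mrps2 lay at 3.74 to 10.5 CPM and was not compared. The 46 bacterial-type members compared had a median of -0.18 in fasted spleen, 40 of them lower, and the 27 of mitochondria alone a median of -0.10, 20 of them lower; in marrow the medians were -0.47 and -0.42. Members whose promoter held NRF1, ETS or YY1 letters had a median of -0.12 in fasted spleen and those with none of the 3 had -0.15; in marrow the medians were -0.36 and -0.52.

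Genes around the mitochondrial ribosome did not all have ratios like it. The values below are fasted against AL, spleen first and marrow second. Counts take the list genes with a mean of at least 10 CPM. Summed ratios, here and in the next paragraph, take every list gene in the matrix, also those below that level. Of all genes, 6.60% were lower and 5.41% higher past the threshold in spleen, and 26.6% lower and 20.7% higher in marrow. Mitoribosomal proteins under other names, 5 compared, had a summed ratio of -0.09 (-0.17 to -0.01) in fasted spleen and -0.49 in fasted marrow, with 1 and 4 lower past the threshold, and -0.20 in tumour; Dap3, a GTP-binding small-subunit protein, was at -0.03 and 0.11. Of 13 mitochondrial translation factors 1 was lower and 1 higher in spleen (summed 0.03, -0.06 to 0.12), and 4 were lower and 1 higher in marrow (-0.29). Tufm, the elongation factor that brings aminoacyl-tRNA, was at 0.02 and -0.56 (-1.19 to 0.06), its exchange factor Tsfm at -0.06 and -0.65 (-1.22 to -0.11), Gfm1, the translocase, at -0.21 and -0.21, and Lrpprc, which stabilises mitochondrial messenger RNA, at -0.33 and -0.29. Of 7 mitochondrial aminoacyl-tRNA synthetases none passed the threshold in spleen and 5 were lower in marrow (summed -0.03 and -0.48). Of 12 assembly factors 1 was higher in spleen, and 4 were higher and 2 lower in marrow (summed 0.06 and 0.02). Of 5 genes for mitochondrial transcription and DNA upkeep none passed in spleen, and 1 was higher and 2 lower in marrow (summed 0.00 and -0.31); Tfam, which packages mitochondrial DNA, was at 0.06 and -0.47 (-1.002 to 0.04), and Polrmt, the RNA polymerase, lay under 10 CPM. Of 5 regulators of mitochondrial genes none passed in either tissue (summed 0.10 and 0.22): Nrf1 was at -0.22 and 0.25, Gabpa at 0.26 and -0.01, and Myc at 0.12 and 0.18, while Myc was at 1.08 (0.47 to 1.74) in fasted tumour, 68.6 against 29.7 CPM. In tumour the summed ratios were -0.16 for the factors, -0.22 for the synthetases, -0.01 for assembly, -0.10 for transcription and 0.45 for the regulators.

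Nuclear genes of the respiratory chain were also lowest in the fasted population of each tissue, with 2.32% of UMIs in naive, 2.37% in AL, 2.11% in fasted and 2.35% in refed spleen, 2.60%, 1.99% and 2.55% in AL, fasted and refed marrow, and 2.26%, 2.13% and 2.39% in tumour. Of 76 nuclear genes of oxidative phosphorylation 71 were lower in fasted spleen, with a summed ratio of -0.17 (-0.18 to -0.16). Past the threshold 10 were lower there, where 6.60% of all genes were. In fasted marrow 51 were lower past it (26.6% of all genes, summed ratio -0.38), and in fasted tumour 8 were (17.6% of all genes, summed ratio -0.08). The 13 messenger RNAs of mitochondrial DNA, which the ribosome translates, were higher in sum in fasted than in AL cells, by 0.12 in spleen, 0.10 in marrow and 0.16 in tumour. In spleen the AL population was the low one, with 2.94% of UMIs against 3.22% in naive, 3.19% in fasted and 3.29% in refed cells, so the fasted level was not apart from naive and refed. The AL share was also the lowest in marrow, with 4.12%, 4.41% and 4.32% in AL, fasted and refed cells. In tumour it was likewise the lowest, with 2.28%, 2.55% and 2.59% in the same order. Cytosolic ribosomal protein genes were 0.06, 0.09 and 0.09 higher in fasted than in AL cells. In spleen TMM factors lower every such ratio by 0.05, and the refed share (24.6%) was above the fasted one (23.6%). The refed share was also above the fasted one in marrow (29.9% and 29.4%), and below it in tumour (28.7% and 30.8%). Genes of dividing cells were lower, 11 of 12 past the threshold in spleen and in marrow and 12 of 12 in tumour (summed -1.21, -1.02 and -1.46). Of 14 genes of MYC-linked and nucleolar growth 4, 13 and 3 were lower past it (-0.11, -0.61 and -0.12). Of all genes 6.60%, 26.6% and 17.6% were, in the same order of tissues. When the cytosolic ribosomal and mitochondrial genes were taken out of the totals, the ratio of the 78 genes was -0.13 in spleen and -0.37 in marrow.

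**Figure D3:**
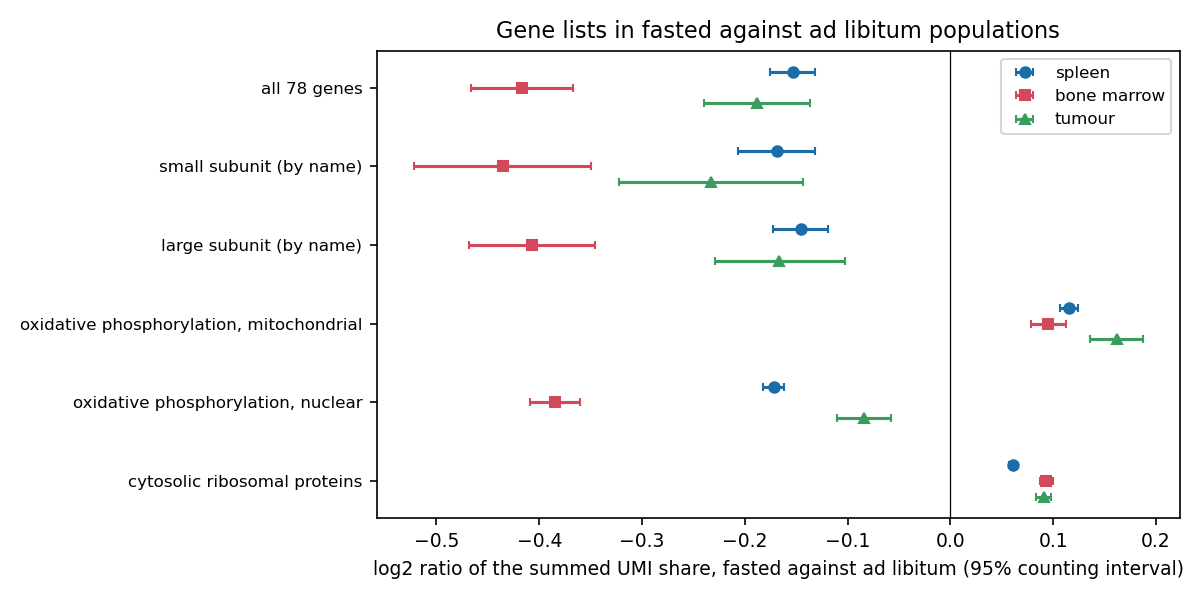
Log2 ratio of the summed UMI share of gene lists (x axis) between fasted and AL populations of spleen (circles), marrow (squares) and tumour (triangles), with 95% counting intervals as bars. Mitochondrial ribosomal and nuclear oxidative phosphorylation genes lie left of 0, at -0.15 and -0.17 in spleen, and messenger RNAs of mitochondrial DNA and cytosolic ribosomal proteins lie right of it, at 0.12 and 0.06, before the TMM shift of -0.05 in spleen.

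The authors sorted the cells into 12 clusters, numbered 0 to 11, which were made from the same counts, so differences between them are a description. The share of the 78 genes was highest in cluster 10 (0.738%), of whose cells 76.6% held at least 3 UMIs of dividing genes, and in cluster 11 (0.618%), of whose cells 95.5% came from tumour. It was lowest in cluster 9 (0.325%), cluster 6 (0.400%) and cluster 0 (0.439%). Clusters 9 and 6 had the lowest median depths, 1399 and 2205 UMIs per cell, and the highest shares of mitochondrial messenger RNAs, 8.30% and 12.7% of UMIs. In cluster 6, 28.9% of cells held at least 3 dividing UMIs, so a low share also stood beside many dividing cells. Of the 74 members 49 had their highest level in cluster 10 and 11 in cluster 11, and 50 had their lowest in cluster 9. Of all genes compared, 16.9% had their highest level in cluster 10, 7.49% in cluster 11, and 17.9% their lowest in cluster 9. Mrpl12 stood at 160 CPM in cluster 10 and 46.5 in cluster 9. Mrpl24, Mrpl9, Mrpl4, Mrpl58 and Mrpl43 had their highest level in cluster 3, a cluster of 92.7% spleen cells (118 CPM for Mrpl24 and 139 CPM for Mrpl58). Of all genes compared, 1.96% had their highest level there. Mrpl24, Mrpl9 and Mrpl43 still had their lowest level in cluster 9. In clusters 0, 8 and 11, in which 84.0% to 95.5% of cells came from tumour, Mrpl58 stood at 64.1, 73.5 and 70.0 CPM, and in the 9 other clusters at 79.4 to 139 CPM.

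**Figure D4:**
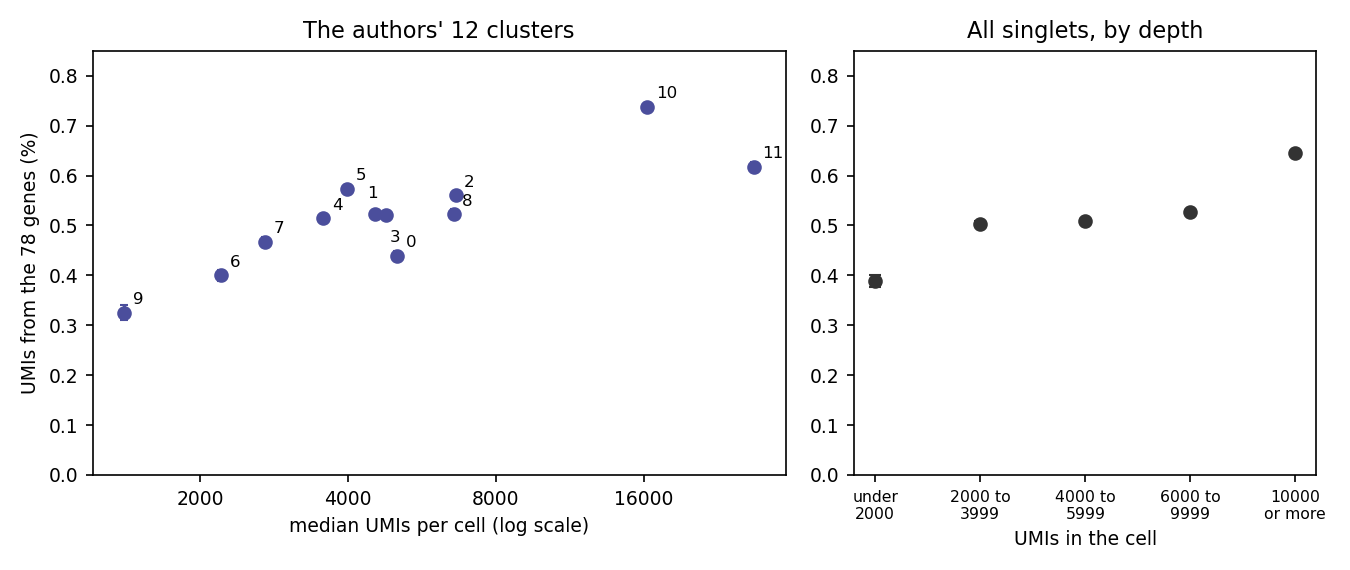
Share of UMIs from the 78 genes (y axis, %), left for the authors' 12 clusters against the median UMIs per cell (log scale, points labelled by cluster number) and right for all single-population cells by the UMIs in the cell; bars are exact 95% binomial intervals, mostly smaller than the points. The share runs from 0.325% in cluster 9 to 0.738% in cluster 10, and from 0.388% in cells under 2000 UMIs to 0.646% in cells of 10000 or more.

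The share went with the depth of the cell. It was 0.388% in cells under 2000 UMIs, 0.503% from 2000, 0.508% from 4000 and 0.527% from 6000 UMIs, and 0.646% in cells of 10000 UMIs or more, of which 46.9% held dividing UMIs. Because fasted spleen cells were shallower than AL cells (medians 3462 and 4210 UMIs), the ratio was taken within these classes. Fasted against AL spleen was -0.12 (-0.26 to 0.03) in the lowest class, then -0.09, -0.14 and -0.11 with intervals that left out 0. Fasted against AL marrow was -0.22, -0.24, -0.09 and -0.19 in the same 4 classes, and the intervals of the lowest class and of that from 4000 UMIs included 0. In both tissues the fasted population was thus the lower one in each of these classes, by less than in the sums.

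Within the clusters, fasted spleen cells had the lower share in 7 of the 8 clusters with at least 20 cells of both populations. The ratios ran from -0.06 (-0.12 to 0.00) in cluster 4 to -0.22 (-0.40 to -0.04) in cluster 6, and cluster 9 was at 0.03 (-0.19 to 0.24). In marrow all 3 such clusters were lower, cluster 2 at -0.21 (-0.28 to -0.13), cluster 7 at -0.30 and cluster 6 at -0.59. Depth was lower in fasted cells of each of these clusters.

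**Figure D5:**
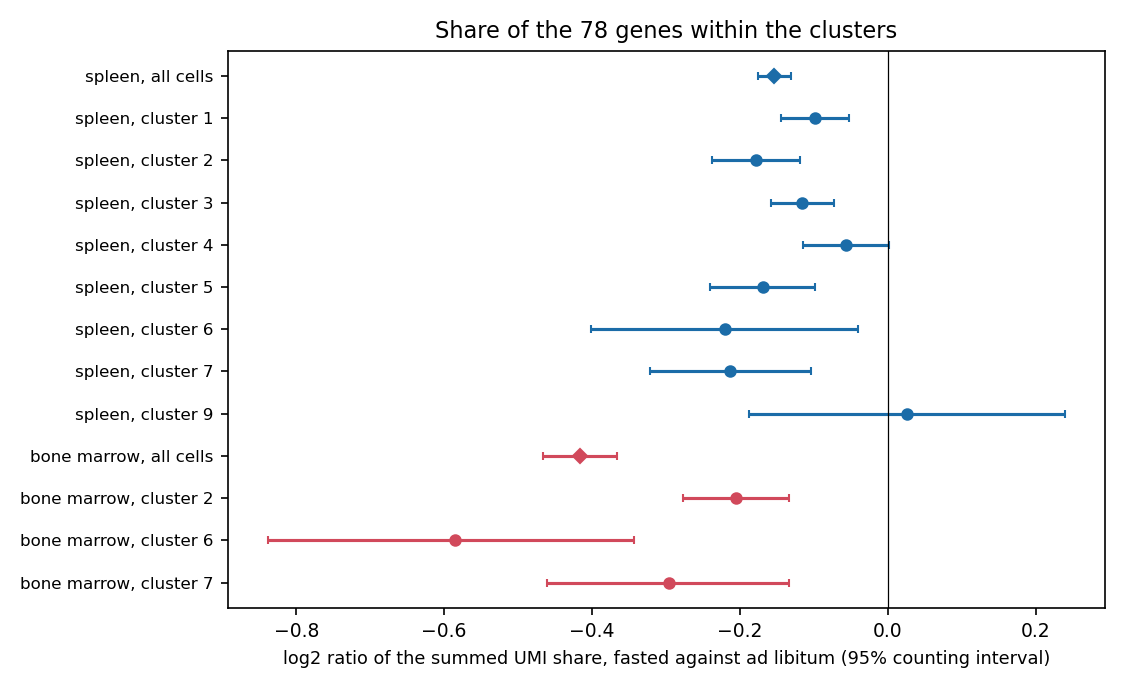
Log2 ratio of the share of the 78 genes between fasted and AL cells (x axis) for all cells (diamonds) and within each of the authors' clusters (circles) that held at least 20 cells of both populations, spleen in blue and marrow in red, with 95% counting intervals. All points but spleen cluster 9 (0.03) lie left of 0.

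Dividing cells had more of these messenger RNAs. Cells with at least 3 UMIs of the dividing genes, 739 in all, had a share of 0.667%, and the 6740 others 0.518%. In spleen the dividing cells stood at 0.595% in naive, 0.629% in AL, 0.491% in fasted and 0.610% in refed populations. The other spleen cells stood at 0.523%, 0.534%, 0.490% and 0.529%. In fasted spleen the 55 dividing cells (interval 0.465% to 0.519%) were thus at the level of the other cells, while in naive, AL and refed spleen they were above it. Dividing cells of fasted spleen were also shallower, with a median of 3857 UMIs against 6201 in AL. In fasted tumour the 75 dividing cells stood at 0.617% and the others at 0.486%, so the gap was present there. In refed tumour the values were 0.641% and 0.548%. In marrow the dividing cells stood at 0.733% in AL and 0.724% in refed cells, and the other cells at 0.543%, 0.483% and 0.538% in AL, fasted and refed cells. Because deep cells reach 3 dividing UMIs more easily, the classes differ in depth, with medians of 9000 and 4267 UMIs, and its part in these differences was not tested.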

How the data were processed

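The data are single-cell RNA counts and hashtag counts of 1 pooled 10X lane. The deposited values are counts of UMIs per gene and cell, made by the authors with seqc, per the labels' protocols, and the mm10 build, as the submitters' processing notes list; their hashtag classes and cluster numbers came with the matrix, and how they were made is not described in the sources used. The cells carried in 1 population were used (46 to 1804 per population) and doublets and unclassified cells left out. UMIs were summed per population with Python 3.11.15, pandas 2.3.3 and numpy 2.4.6, giving 571789 to 8855566 UMIs. Shares were compared as log2 ratios without a pseudocount, single genes as log2 ratios of CPM + 5 among genes with a mean of at least 10 CPM, with exact 95% binomial intervals (scipy 1.17.1). These cover counting error only. A count of 3 UMIs in the smallest population equal 5.25 CPM. Members named are the 5 highest and 5 lowest (3 and 3 for refed and naive comparisons) whose interval leaves out 0, and a fixed set with known roles. Alternatives were TMM factors (edgeR 4.0.16, R 4.3.3), other totals, cells left out, cell and cluster weights, pseudocounts and level filters. Dividing cells held at least 3 UMIs of a 12-gene list. Scripts were tested on simulated data. Positions come from GENCODE M21 and promoters from RefSeq, both GRCm38. The members and lists were chosen with earlier results of these data known.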

Additional observations from a re-analysis of the deposited data

Results flagged for a closer look

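Mrpl4 had opposite ratios between fasted and AL populations in 2 tissues: -0.44 in spleen (-0.61 to -0.27) and 0.65 in tumour (0.11 to 1.23). The difference between the tissues was not tested, and the tumour AL population had 46 cells.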

How the results depend on the processing

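Values are log2 ratios of the summed share or numbers of members past the threshold, and causes were not tested, also where fewer cells enter. In fasted against AL spleen the ratio was -0.20 with TMM factors, -0.13 with totals without cytosolic ribosomal and mitochondrial genes, -0.12 without the 4345 cells with at least 3 UMIs of other markers, -0.12 without the 739 dividing cells, -0.13 without the 5% deepest cells, -0.13 when each cell weighed the same, -0.21 when each cluster did and -0.11 in cells of 3000 to 6000 UMIs, all below 0. In marrow it was -0.12 without other markers, -0.17 without dividing cells, -0.33 per cell, -0.31 with equal clusters and -0.10 in the depth window. In tumour it was 0.18, -0.074, -0.032, -0.26 and 0.50 in the same order, and -0.30 without the deepest cells.

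Refed against fasted spleen was 0.21 (TMM), 0.10 (without the deepest cells), 0.11 (per cell), 0.17 (equal clusters) and 0.11 (window). Marrow was 0.44 (TMM), 0.27 (without other markers), 0.16 (without dividing cells), 0.28 (per cell), 0.27 (equal clusters) and 0.13 (window). Tumour was 0.16 (other totals), -0.028 (without other markers), 0.30 (without the deepest cells) and 0.15 (equal clusters). AL against naive was 0.066 (TMM), 0.10 (equal clusters) and 0.0071 (window). AL marrow against spleen was 0.37 (other totals), -0.11 (without other markers), 0.025 (without dividing cells), 0.20 (without the deepest cells), 0.10 (per cell), 0.082 (equal clusters) and -0.11 (window). AL tumour against spleen was 0.27 (TMM), 0.22 (other totals), -0.51 (without other markers), -0.062 (without dividing cells), -0.19 (per cell), -0.14 (equal clusters) and -0.84 (window). The other 39 of these values moved by less than the counting interval.

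With a pseudocount of 20 CPM, 1 member was higher and 3 lower in fasted spleen, 2 higher in fasted tumour, 3 higher and 0 lower in refed spleen, 11 higher and 0 lower in refed tumour, 0 higher and 0 lower in AL against naive, 19 higher in AL marrow and 8 lower in AL tumour against spleen. With 1 CPM, 2 were lower in refed spleen and 4 higher in AL against naive. A minimum of 30 CPM left 1 higher in fasted spleen, 1 lower in refed tumour, and 0 higher and 0 lower in AL against naive; with no minimum 2 were lower in refed marrow. With TMM factors 16 were lower in fasted spleen, 18 higher and 0 lower in refed spleen, 2 higher in AL against naive and 4 lower in AL tumour. Leaving out the cell with most UMIs of each gene gave 16 higher and 7 lower in fasted tumour, 2 higher in AL against naive, and 13 higher and 26 lower in AL tumour. The shares of all genes under the settings of this paragraph are not given here, so its counts are not set against them.

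The next 2 settings were chosen for these counts after seeing the data, as was the depth window above. Brackets give the share of all genes past the threshold under the same setting. Without dividing cells 5 members were lower in fasted spleen (4.39%). In fasted marrow 3 were higher (19.4%) and 23 lower (19.3%), and in fasted tumour 16 were higher (33.4%). In refed spleen 0 were lower (8.12%). In refed marrow 25 were higher (17.6%) and 5 lower (24.3%), and in refed tumour 5 were lower (22.1%). In AL marrow against spleen 8 were higher (7.87%) and 1 lower (18.5%), and in AL tumour 27 were lower (47.2%). In cells of 3000 to 6000 UMIs 2 were lower in fasted spleen (7.94%). In fasted marrow 13 were higher (22.0%) and 26 lower (35.4%), and in fasted tumour 46 were higher (56.8%). In refed spleen 2 were lower (8.94%). In refed marrow 28 were higher (34.8%) and 15 lower (27.4%), and in refed tumour 19 were lower (43.4%). In AL against naive 2 were higher (6.27%) and 4 lower (5.13%), and in AL marrow 8 were higher (22.4%) and 15 lower (18.1%). In AL tumour, which has 6 such cells, 14 were higher (30.9%) and 51 lower (57.9%). No paired analysis was possible because each population is 1 sample.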
